A study of Mus musculus with 2 samples.

Results

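The genes described here encode 2 glucose transporters (Slc2a1 and Slc2a3), 2 lactate transporters (Slc16a1 and Slc16a3) and the chaperone of the latter (Bsg). They were chosen by symbol, and each symbol matched 1 row in the deposited count matrices, so that 5 of 31253 genes are described across the cell types and both genotypes of the study. The study measured single-cell transcriptomes from mouse embryonic brain at E12.5, after cells had been collected with magnetic beads against CD31, a surface protein of endothelial cells, platelets and some leukocytes. A single library came from Foxq1flox/flox embryos, which carry floxed alleles of the forkhead transcription factor gene Foxq1, and 1 from Foxq1iECKO embryos, a name that by convention stands for an inducible endothelial knockout of the same gene but is not spelled out in the labels. The labels name no Cre driver, no inducing agent and no number of embryos per library.

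GLUT1, encoded by Slc2a1, is a facilitative glucose transporter and the main route of glucose across the blood-brain barrier, and its transcript is a standard marker of brain endothelium that has acquired barrier properties. GLUT3, encoded by Slc2a3, is a facilitative transporter best known from neurons and platelets. MCT1 (Slc16a1) and MCT4 (Slc16a3) carry lactate, pyruvate and ketone bodies together with a proton. MCT4 is the form typical of cells that export lactate made by glycolysis. Basigin (Bsg) is a membrane glycoprotein of the immunoglobulin superfamily that accompanies MCT1 and MCT4 to the plasma membrane and was long used as an antigen of brain endothelium.

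The genes lie on 5 mouse chromosomes (mm10 positions with GENCODE vM21 models). Slc2a1 (ENSMUSG00000028645) occupies chr4:119108711-119137983 on the plus strand with 10 exons in its lowest-numbered transcript. Slc2a3 (ENSMUSG00000003153) occupies chr6:122727809-122801640 on the minus strand, also with 10 exons. Slc16a1 (ENSMUSG00000032902) occupies chr3:104638668-104658462 on the plus strand with 5 exons. Slc16a3 (ENSMUSG00000025161) occupies chr11:120948480-120960868 on the plus strand with 6 exons. Bsg (ENSMUSG00000023175) occupies chr10:79704491-79711969 on the plus strand with 8 exons. The antisense genes Gm12867 and Gm12868 and the microRNA gene Mir1957a overlap Slc2a1. Gm12867 had 0 UMIs in either library and Gm12868 had 1 UMI in the Foxq1flox/flox library and 4 UMIs in the Foxq1iECKO library over all cells used. The pseudogene Gm4482 lies inside the Slc2a3 locus, and the sense-intronic Gm43581 and Gm43585 lie inside Slc16a1. The sources used here do not say whether counting used the strand.

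Promoter sequence was held for 3 of the 5 members, and it is shown because the targeted gene encodes a DNA-binding factor and because Slc2a1 and Slc16a3 are textbook targets of hypoxia-inducible factors (HIFs). Each window (RefSeq transcription start, GRCm38.p6) covers the bases before the start site, trimmed where an annotated exon begins. Slc2a1 is shown at chr4:119108495-119108710, Slc16a1 at chr3:104638414-104638663 and Slc16a3 at chr11:120948817-120949052, all on the plus strand, 5′ to 3′. Capitals mark the HIF core motif, ACGTG or GCGTG on either strand, with overlapping matches merged.
Slc2a1 promoter: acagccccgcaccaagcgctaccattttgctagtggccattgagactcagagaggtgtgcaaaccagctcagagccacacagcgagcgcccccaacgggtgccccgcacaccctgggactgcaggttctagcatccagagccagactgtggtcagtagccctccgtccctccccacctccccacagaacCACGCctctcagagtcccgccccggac
Slc16a1 promoter: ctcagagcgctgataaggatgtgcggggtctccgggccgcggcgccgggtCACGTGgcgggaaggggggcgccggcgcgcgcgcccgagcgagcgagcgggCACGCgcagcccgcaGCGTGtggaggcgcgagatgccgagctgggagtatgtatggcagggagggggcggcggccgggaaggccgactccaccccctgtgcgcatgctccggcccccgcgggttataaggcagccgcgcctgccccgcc
Slc16a3 promoter: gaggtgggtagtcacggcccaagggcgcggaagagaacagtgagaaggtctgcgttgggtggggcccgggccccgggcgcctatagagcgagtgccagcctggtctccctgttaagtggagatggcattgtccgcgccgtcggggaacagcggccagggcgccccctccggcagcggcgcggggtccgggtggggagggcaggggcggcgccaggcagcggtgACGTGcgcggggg

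Before trimming, the 250 bases upstream of the start held 2 HIF core matches in Slc2a1, 4 in Slc16a1 and 2 in Slc16a3. A palindromic CACGTG was counted once on each strand. At least 1 match was present in 38.6% of 32851 promoters of the same length, at least 2 in 16.73% and at least 4 in 2.584%. The forkhead motif GTAAACA, searched on both strands, had 0 matches in the 3 windows and at least 1 in 3.166% of all promoters. The 3 windows were rich in G and C, at 66.4%, 76.4% and 73.6% against a median of 52.4% over all promoters. These are letter matches in short windows and say nothing about binding.

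The 2 libraries held 15837 and 15108 barcodes and 76580165 and 72445925 unique molecular identifiers (UMIs, 1 per captured transcript), with medians of 3836 and 3660 UMIs per barcode, Foxq1flox/flox first as in every pair below. They shared 270 barcodes, 1.70% and 1.79% of their barcodes. After filtering, 13399 and 12592 cells were used, and 10 classes named from marker genes held at least 50 cells in both libraries, among them neuron-like, fibroblast-like and cartilage-like cells, although the labels call both samples endothelial cells of the brain. Endothelial-like cells numbered 2460 and 1968, and all 15 endothelial markers were detected in them, summing to 8010 and 6890 CPM (a gene's part of all UMIs of the summed cells, on a counts-per-million scale), with 0 of 15 higher in Foxq1iECKO. Levels below are CPM of summed cells with exact Poisson 95% intervals, and ratios are log2 of Foxq1iECKO over Foxq1flox/flox with exact conditional binomial intervals. With 1 library per genotype there is no replicate check and no test, the intervals cover counting error only, and a difference between genotypes cannot be told apart from one between the 2 libraries.

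Foxq1 itself was read first, as a check of the labels. Its level in endothelial-like cells was 473 CPM (462 to 483) in Foxq1flox/flox and 224 CPM (216 to 232) in Foxq1iECKO, a log2 ratio of -1.08 (-1.14 to -1.02). The labels do not say which part of the gene is deleted, and 3′ tags that lie outside it would still be counted. In pericyte-like cells the Foxq1 level was 624 and 537 CPM, a log2 ratio of -0.22 (-0.37 to -0.06). The Foxq1iECKO library was thus lower in the class the genotype targets, and Foxq1 transcripts were still present there.

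A ratio was called by size where it reached 1.5 either way with an interval that excluded 1. In endothelial-like cells, 3 members (Slc2a1, Slc16a1 and Bsg) had at least 20 CPM in 1 library or more and 0 of them were called, against 1.46% of 6220 genes at that level. Members at 20 CPM were called in none of the other 9 named classes either. The background there was 2.19% of genes in cartilage-like, 1.67% in fibroblast-like, 3.52% in leukocyte-like, 2.52% in lymphatic endothelial-like and 1.26% in macrophage-like cells. It was 8.95% in megakaryocyte-like, 4.72% in neuron-like, 5.58% in pericyte-like and 2.31% in radial glia-like cells. In neuron-like cells no member reached 20 CPM in either library. In the barrier subclusters of endothelial-like cells, defined below, 3 members reached 20 CPM and 0 were called, against 3.85% of 6259 genes. Over these 10 classes the calls by size were for Slc2a3 in endothelial-like and lymphatic endothelial-like cells and for Slc16a3 in cartilage-like cells, all below 20 CPM in both libraries. The shares above cover genes at 20 CPM or more. No share of all genes at these lower levels was taken for lymphatic endothelial-like or cartilage-like cells, so these calls have no background. Smaller sets of cells from the endothelial clusters gave calls at 20 CPM in 1 library or more. The subclusters and the barrier score among them are described below. Bsg was called higher in Foxq1iECKO in the cycling subcluster, against 5.79% of 6597 genes, and in 1 range of a barrier score, against 6.54% of 6365 genes. Slc2a3 was called higher in the subcluster led by Ccn4, against 5.84% of 6181 genes, and in the first-level cluster led by Spock2 (14.9 and 28.1 CPM), against 3.99% of 6288 genes. In both it reached 20 CPM only in Foxq1iECKO, where it was higher, so being counted depended on the same difference. The Spock2-led cluster (1033 and 1054 cells) was formed before mixed endothelial and pericyte cells, described below, were set aside. Enriched markers in it included 4 of pericytes. Outside the named classes of at least 50 cells, Slc16a1 was called lower in the unnamed cluster with haemoglobin genes, at 40.4 and 23.9 CPM, against 7.17% of 6356 genes. Slc2a3 was called higher in skeletal muscle-like cells, from 0 and 6 UMIs in 37 and 39 cells, against 7.62% of 7222 genes. There too it was counted only through Foxq1iECKO.

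**Figure D1:**
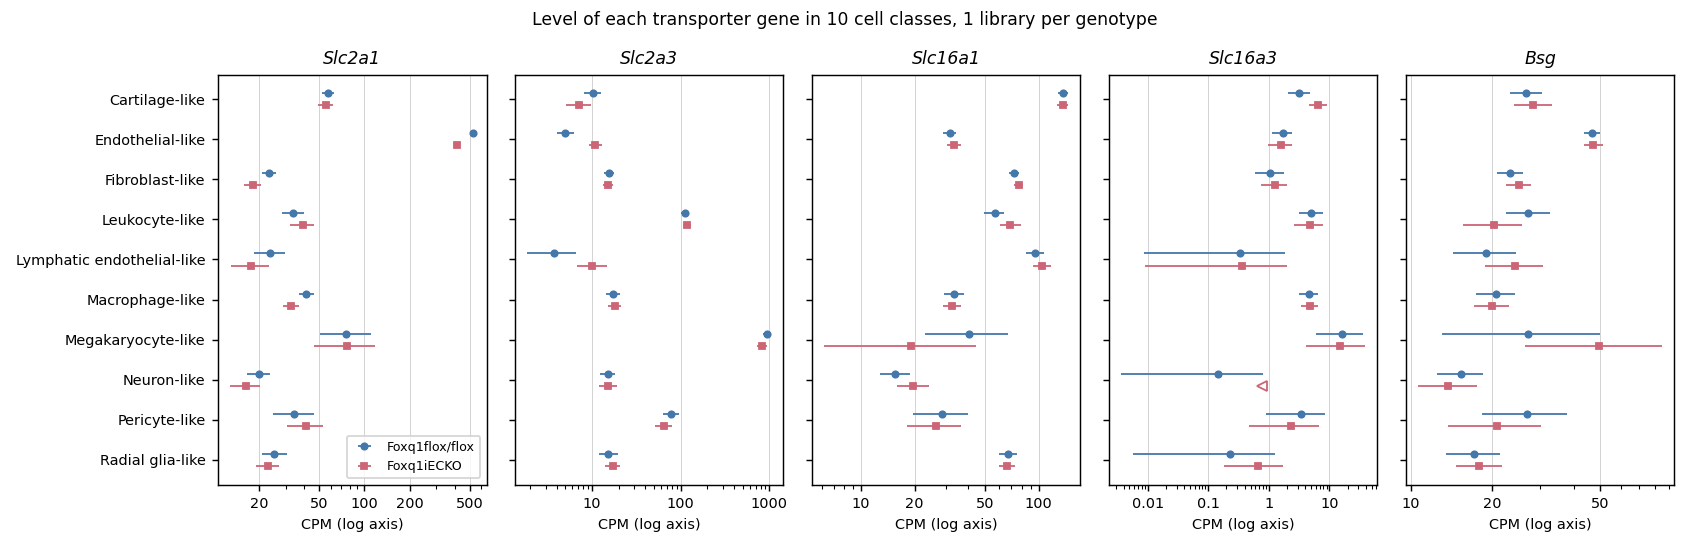
Level of each gene (CPM, log axis) in 10 cell classes, with 1 point per library (circles Foxq1flox/flox, squares Foxq1iECKO) and exact Poisson 95% intervals. The open triangle is the upper bound where 0 UMIs were counted. Slc2a1 peaks in endothelial-like cells at 527 and 415 CPM, Slc2a3 in megakaryocyte-like cells at 948 and 825 CPM and Slc16a1 in cartilage-like cells at 137 and 136 CPM.

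Slc2a1 was an endothelial gene in these libraries. Its level was 527 CPM (516 to 538) in Foxq1flox/flox endothelial-like cells, from 8931 UMIs, and 415 CPM (404 to 426) in Foxq1iECKO, from 5489 UMIs. The next class, megakaryocyte-like cells, had 76.1 CPM (50.6 to 110) and 76.4 CPM (46.7 to 118), followed by cartilage-like cells at 57.4 and 55.7 CPM. The lowest level was in neuron-like cells, at 19.9 and 16.3 CPM, so that the highest class was 26.4 and 25.5 times the lowest. Endothelial-like cells stood apart from every other class in both libraries. Megakaryocyte-like and cartilage-like cells did not differ beyond counting error in either library, and the 4 lowest classes, radial glia-like, lymphatic endothelial-like, fibroblast-like and neuron-like cells, each overlapped their neighbours among these 4. Lymphatic endothelial-like cells, in which 14 of 15 endothelial markers reached 10 CPM, had only 23.7 CPM (18.4 to 29.9) and 17.7 CPM (13.1 to 23.4) of Slc2a1.

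The share of cells with a Slc2a1 UMI gave the same contrast between endothelial-like and neuron-like cells. With every cell thinned to 2000 UMIs, 54.5% of Foxq1flox/flox endothelial-like cells (exact binomial interval 52.3% to 56.6%, 2071 cells) and 48.5% of Foxq1iECKO cells (46.0% to 50.9%, 1589 cells) had at least 1 UMI. Thinning left out 389 and 379 shallower cells, and without it the shares were 72.1% and 71.7% at median depths of 4396 and 4310 UMIs. Neuron-like cells, the class with the lowest Slc2a1 level, served as a low reference. They had a Slc2a1 UMI in 3.08% and 2.59% of thinned cells and in 5.51% and 5.22% of all of them, at median depths of 3265.5 and 3258 UMIs. How much of this was free RNA was not measured.

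Endothelial-like cells were split into subclusters without using the 5 members, and Slc2a1 varied widely among these. Blood-brain barrier markers named 2 subclusters. The one led by Fam13a had 1177 CPM (1094 to 1265) and 1147 CPM (1050 to 1250), and the one led by Synm had 922 CPM (894 to 951) and 829 CPM (782 to 878). At the other end, non-barrier endothelial-like cells led by Gbp2 had 184 CPM (174 to 194) and 182 CPM (171 to 193). An arterial subcluster led by Gja5 had 365 and 248 CPM, and a cycling one led by Ncapg 594 and 567 CPM. Another 2 subclusters stayed unnamed: the Ccl3-led one, in which fewer than 3 markers of any subtype were enriched and macrophage genes were among the leading genes, had 381 and 453 CPM, and the Ccn4-led one, with fibroblast genes, had 743 and 547 CPM. A subcluster that met the marker criteria for 8 pericyte genes was set aside as mixed endothelial and pericyte cells and had 614 CPM (588 to 642) and 575 CPM (553 to 598). Barrier subclusters were thus the highest for Slc2a1 and non-barrier cells the lowest in both libraries.

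The genotype ratio of Slc2a1 depended on which endothelial cells were summed. Over all endothelial-like cells the log2 ratio was -0.34 (-0.39 to -0.29). Within the 2 barrier subclusters together, 953 CPM (927 to 981) stood against 905 CPM (863 to 950), a log2 ratio of -0.07 (-0.16 to 0.01). In the other endothelial-like cells, 340 and 335 CPM gave a log2 ratio of -0.02 (-0.09 to 0.04). The make-up of this group also differed between the libraries, with 117 of its 1709 and 284 of its 1599 cells in the Ccn4-led subcluster. Its ratio is thus not that of each subcluster in it. The barrier subclusters contributed 751 of the 2460 Foxq1flox/flox cells and 369 of the 1968 Foxq1iECKO cells, and the genes that define these clusters may themselves differ between genotypes, so the sizes are given only as the weights behind the pooled value. Giving each subcluster its share of the pooled cells as the same weight in both libraries gave a log2 ratio of -0.089. By single subcluster the ratio was -0.15 (-0.25 to -0.06) in the Synm-led and -0.04 (-0.20 to 0.13) in the Fam13a-led barrier cells. It was -0.44 (-0.56 to -0.32) in the Ccn4-led, -0.56 (-0.90 to -0.23) in the arterial and 0.25 (0.05 to 0.45) in the Ccl3-led cells. Non-barrier cells were at -0.02 (-0.13 to 0.10).

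**Figure D2:**
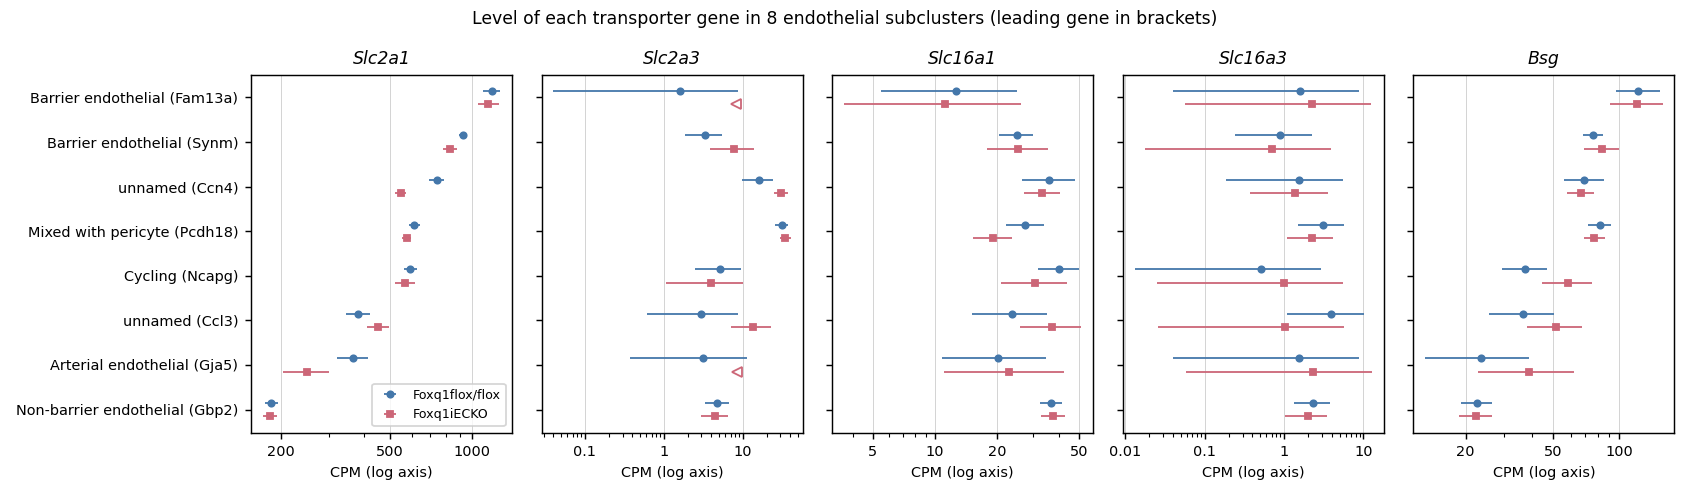
Level of each gene (CPM, log axis) in 8 endothelial subclusters named with their leading gene, 1 point per library with exact Poisson 95% intervals. Open triangles are upper bounds at 0 UMIs. Slc2a1 and Bsg are highest in the Fam13a-led barrier cells (1177 and 1147 CPM, 122 and 120 CPM) and lowest in the non-barrier cells, and Slc2a3 is highest in the mixed and the Ccn4-led cells.

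A second division of the same cells used the number of UMIs of 17 barrier marker genes in each cell thinned to 2000 UMIs; these are ranges of a score and not cell types. Slc2a1 was higher in each range than in the one below it in both libraries. Cells with 0 to 2 barrier UMIs had 164 and 157 CPM, those with 3 to 5 had 289 and 286 CPM, and those with 6 to 9 had 614 and 463 CPM. Cells with 10 to 14 barrier UMIs had 711 and 669 CPM, and cells with 15 or more had 1047 CPM (1017 to 1079) and 860 CPM (821 to 900). The log2 ratio was -0.28 (-0.36 to -0.21) in the top range and -0.07 (-0.20 to 0.07) in the bottom range. Giving every range the same weight in both libraries left a log2 ratio of -0.21.

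Slc2a1 was also read against Foxq1 itself in the thinned cells. Cells with 0 Foxq1 UMIs had 317 CPM (306 to 329) and 338 CPM (326 to 350) of Slc2a1. Cells with 1 Foxq1 UMI had 737 and 642 CPM, and those with 2 or more had 855 CPM (827 to 884) and 653 CPM (609 to 698). In both libraries cells with a Foxq1 UMI were higher for Slc2a1 than cells without, and the Foxq1iECKO library was lower in each range with a Foxq1 UMI but not in the range without. The ranges were cut on the targeted gene itself, so a range need not hold like cells in the 2 libraries. Cells with 0 Foxq1 UMIs were 59.7% and 77.5% of the thinned cells, and those with 2 or more were 23.0% and 10.1%. Foxq1 was itself at 962 and 480 CPM in the barrier subclusters against 67.8 and 42.3 CPM in non-barrier cells, and the part of the subclusters in this order was not tested.

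**Figure D3:**
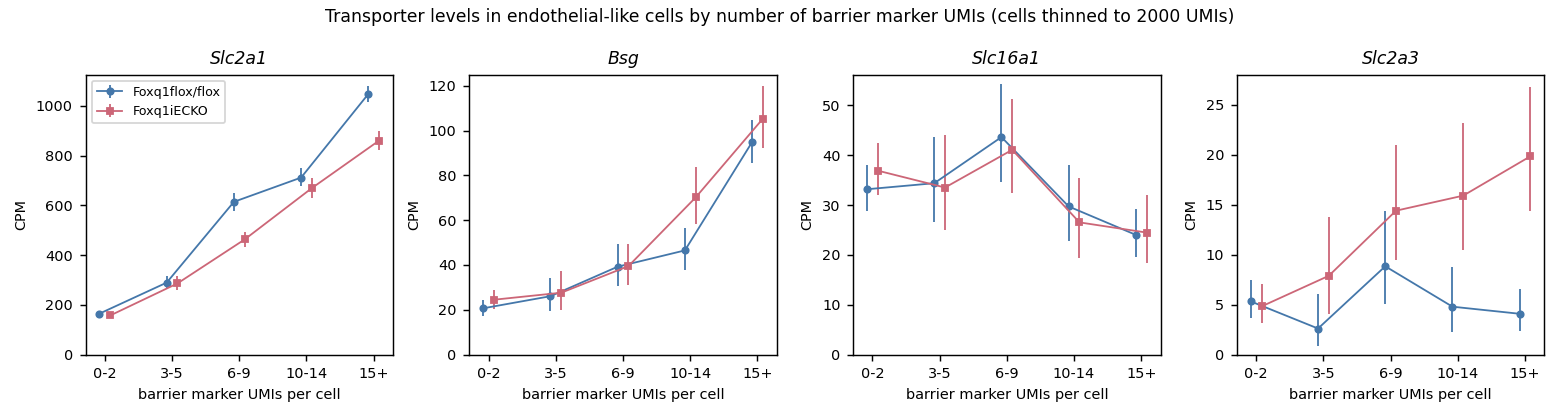
Level (CPM) of Slc2a1, Bsg, Slc16a1 and Slc2a3 in endothelial-like cells by the number of barrier marker UMIs per cell after thinning to 2000 UMIs, with 1 line per library and exact Poisson 95% intervals. Slc2a1 climbs from 164 and 157 CPM to 1047 and 860 CPM and Bsg from 20.7 and 24.5 CPM to 94.9 and 105 CPM, while Slc16a1 ends at 24.0 and 24.5 CPM.

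Outside the endothelial classes Slc2a1 was also lower in Foxq1iECKO in some classes, at much lower levels. Macrophage-like cells had 41.1 and 32.6 CPM, a log2 ratio of -0.34 (-0.58 to -0.10), and fibroblast-like cells 23.3 and 18.1 CPM, a ratio of -0.36 (-0.61 to -0.12). Neither class is targeted by the genotype as named, and the cause of these ratios was not tested. Over the 10 classes the Slc2a1 ratio was below 0 in 7 and above 0 in 3. The latter were pericyte-like (34.3 and 41.0 CPM), leukocyte-like (33.7 and 38.9 CPM) and megakaryocyte-like cells (76.1 and 76.4 CPM). Over all cells outside the endothelial classes the level was 48.4 and 36.5 CPM, a ratio of -0.41 (-0.50 to -0.32), but 761 of the 2316 and 381 of the 1706 UMIs there came from an unnamed cluster of cells with endothelial and haemoglobin genes. Among macrophage-like subclusters, the microglia-like ones had 45.3 and 46.5 CPM and 60.4 and 46.7 CPM, the border macrophage-like one 31.5 and 26.0 CPM, and a set-aside subcluster with endothelial markers 139 and 138 CPM. A macrophage-like cluster led by Rsad2 and Ifit1, genes induced by interferon, was called lower by size, at 52.2 and 23.7 CPM from 31 and 33 UMIs, a ratio of -1.14 (-1.89 to -0.38), against 6.77% of 6465 genes.

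Slc2a3 was a megakaryocyte gene in these libraries, with 948 CPM (852 to 1053) and 825 CPM (719 to 943) from 74 and 50 megakaryocyte-like cells. Leukocyte-like cells had 112 CPM (102 to 123) and 118 CPM (107 to 131), and pericyte-like cells 78.7 CPM (63.6 to 96.3) and 64.9 CPM (51.8 to 80.4). These 3 classes stood apart from one another and from the rest in both libraries. Macrophage-like (17.4 and 18.0 CPM), fibroblast-like (15.5 and 15.2 CPM), radial glia-like (15.3 and 17.3 CPM) and neuron-like cells (15.2 and 15.2 CPM) did not differ from each other beyond counting error. The neuron-like level is that of cells at E12.5, in which the transporter known from adult neurons was no higher than in fibroblast-like cells. The lowest level was in lymphatic endothelial-like cells at 3.72 CPM in Foxq1flox/flox and in cartilage-like cells at 7.10 CPM in Foxq1iECKO, and the highest class was 255 and 116 times the lowest. After thinning, 75.0% (60.4% to 86.4%, 48 cells) and 77.4% (58.9% to 90.4%, 31 cells) of megakaryocyte-like cells had a Slc2a3 UMI, against 2.44% and 2.87% of neuron-like and 18.8% and 19.5% of leukocyte-like cells. Among macrophage-like subclusters, an unnamed one led by Plac8 and Ccr2 was highest, at 47.9 and 42.0 CPM, and the microglia-like ones were lowest, at 9.50 and 8.03 CPM and at 6.47 and 6.84 CPM.

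In endothelial-like cells Slc2a3 was rare and was called higher by size in Foxq1iECKO. The level was 5.01 CPM (4.0 to 6.20) in Foxq1flox/flox, from 85 UMIs in 75 cells, and 10.9 CPM (9.18 to 12.8) in Foxq1iECKO, from 144 UMIs in 113 cells. The log2 ratio was 1.12 (0.72 to 1.52). With the minimum lowered to 10 CPM in 1 library, Slc2a3 was the 1 member called among 4, against 2.37% of 8026 genes. It reached that minimum only in Foxq1iECKO, where it was higher. Being counted thus depended on the same difference, and the comparison with that share adds no support for Slc2a3. Pericyte markers moved with it: the 11 listed pericyte genes summed to 488 CPM in Foxq1flox/flox and 1294 CPM in Foxq1iECKO endothelial-like cells, and 11 of 11 were higher in the latter. Pericyte-like cells themselves had 11718 and 12635 CPM of these markers. Megakaryocyte markers in endothelial-like cells summed to 16.5 and 10.7 CPM, with 2 of 11 higher in Foxq1iECKO. The call did not hold in every reading. Without the Ccn4-led subcluster, which held 89 of the 144 Foxq1iECKO Slc2a3 UMIs and 21 of the 85 in Foxq1flox/flox, the log2 ratio was 0.38. Without cells that had a UMI of any pericyte marker it was 0.52, from 24 and 20 UMIs. A marker gate applied to each cell, whatever its class, gave -0.14, from 374 and 247 UMIs in 2733 and 2031 cells. That gate asked for endothelial genes and left out cells with Pdgfrb, Ptprc, Col1a1 or Stmn2, but not cells with megakaryocyte markers. Megakaryocyte-like cells had 948 and 825 CPM of Slc2a3, and their part in the gated value was not tested.

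Among subclusters, Slc2a3 in the Ccn4-led cells was 16.0 CPM (9.91 to 24.5) and 30.8 CPM (24.7 to 37.9), a log2 ratio of 0.94 (0.25 to 1.70) that was called by size, with pericyte markers at 3053 and 4557 CPM. Mixed endothelial and pericyte cells had 31.2 and 34.6 CPM, with pericyte markers at 6282 and 7173 CPM. In the Ccl3-led cells, 3 and 13 UMIs gave 2.95 and 13.4 CPM, with pericyte markers at 456 and 1304 CPM and macrophage markers at 288 and 460 CPM. Non-barrier cells had 4.78 and 4.46 CPM, a log2 ratio of -0.10 (-0.89 to 0.68), with pericyte markers at 205 and 236 CPM. Barrier subclusters had 3.10 CPM (1.77 to 5.03) and 5.90 CPM (2.95 to 10.6) from 16 and 11 UMIs, a ratio of 0.93 (-0.32 to 2.13). By barrier score, Slc2a3 was at 5.32 and 4.82 CPM in cells with 0 to 2 barrier UMIs, a ratio of -0.14 (-0.94 to 0.64). In the ranges from 3 to 9 the intervals included 0. Slc2a3 passed the size rule at 10 to 14, with a ratio of 1.73 (0.64 to 2.94). It also passed at 15 or more, at 4.08 and 19.9 CPM from 17 and 43 UMIs, a ratio of 2.28 (1.44 to 3.19). By Foxq1 UMIs the ratios were 0.81 at 0, 1.36 at 1 and 2.23 at 2 or more, all past the size rule. As given for Slc2a1, the Foxq1 ranges held unlike shares of the cells of the 2 libraries. All levels in the barrier score and Foxq1 ranges were below 20 CPM. No share of all genes at such levels was taken for these ranges, so the calls in them have no background. In the subclusters with the most pericyte marker RNA, the Ccn4-led and the mixed cells, Slc2a3 was also highest, and the part of pericyte RNA in the pooled ratio was measured only by the values above.

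Lymphatic endothelial-like cells also had more Slc2a3 in Foxq1iECKO, at 10.1 CPM (6.72 to 14.6) against 3.72 CPM (1.86 to 6.65), a log2 ratio of 1.44 (0.39 to 2.60). This rests on 11 UMIs in 10 of 278 cells and 28 UMIs in 16 of 256 cells, and 1 Foxq1iECKO cell held 10 of the 28. Pericyte markers there summed to 66.9 and 54.5 CPM, with 3 of 11 higher in Foxq1iECKO, and megakaryocyte markers to 5.75 and 15.9 CPM, with 7 of 11 higher and Gp9, Gp1ba, Gp5 and Gp6 at 0 in both libraries. The part of megakaryocyte RNA in this ratio was not tested.

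**Figure D4:**
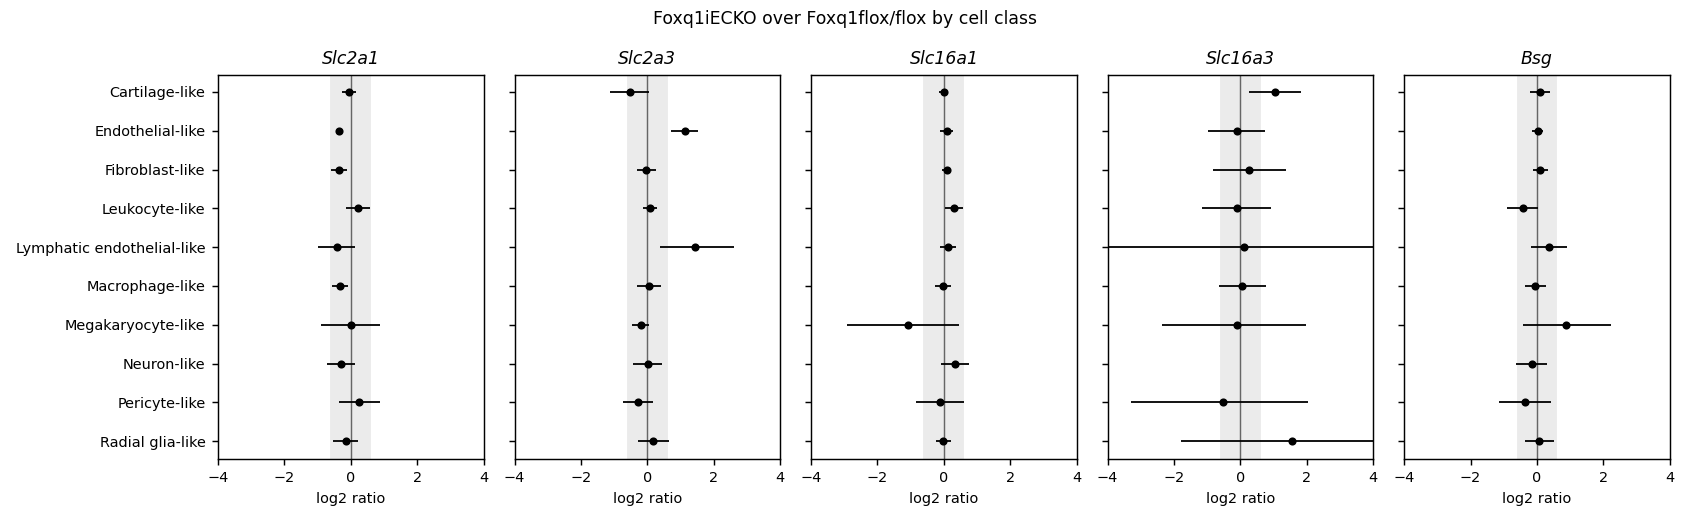
Log2 ratio of CPM, Foxq1iECKO over Foxq1flox/flox, for each gene in 10 cell classes, with exact conditional binomial 95% intervals that are cut at the axis limits where wider. The grey band spans ratios below 1.5 either way. Slc2a3 in endothelial-like (1.12) and lymphatic endothelial-like cells (1.44) and Slc16a3 in cartilage-like cells (1.03) lie outside the band with intervals that exclude 0. Neuron-like Slc16a3 has no point because 0 UMIs were counted in Foxq1iECKO.

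Slc16a1 had its highest level in cartilage-like cells, at 137 CPM (129 to 145) and 136 CPM (127 to 147). Lymphatic endothelial-like cells came next, at 95.3 CPM (84.5 to 107) and 104 CPM (92.3 to 117), and both classes stood apart from the next in both libraries. Fibroblast-like cells had 73.0 and 77.2 CPM and radial glia-like cells 67.1 and 66.4 CPM. Endothelial-like cells were among the low classes, at 31.5 CPM (28.9 to 34.3) and 33.4 CPM (30.3 to 36.6), and did not differ beyond counting error from macrophage-like (33.3 and 32.7 CPM) or pericyte-like cells (28.5 and 26.3 CPM). The lowest level was in neuron-like cells in Foxq1flox/flox, at 15.6 CPM, and in megakaryocyte-like cells in Foxq1iECKO, at 19.1 CPM from 5 UMIs. The range over classes was narrower than for either glucose transporter gene, 8.78 and 7.14 times. Slc16a1 was thus lower in blood endothelial-like than in lymphatic endothelial-like cells in both libraries, the reverse of the order for Slc2a1.

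Within endothelial-like cells, Slc16a1 was no higher in barrier than in non-barrier cells. Barrier subclusters had 23.4 CPM (19.4 to 28.0) and 22.0 CPM (15.8 to 29.8), against 36.7 CPM (32.3 to 41.5) and 37.5 CPM (32.8 to 42.7) in non-barrier cells. The intervals do not overlap in either library. The Fam13a-led barrier cells, highest for Slc2a1, had 12.7 and 11.2 CPM of Slc16a1, from 8 and 5 UMIs. The genotype log2 ratio in endothelial-like cells was 0.08 (-0.10 to 0.26). Leukocyte-like cells had 56.4 and 69.3 CPM, a ratio of 0.30 (0.02 to 0.57), and mixed endothelial and pericyte cells 27.5 and 19.2 CPM, a ratio of -0.52 (-0.96 to -0.07). Neither reached the size called. With thinning, 5.75% and 5.54% of endothelial-like cells had a Slc16a1 UMI, against 23.4% and 24.7% of cartilage-like and 3.08% and 2.87% of neuron-like cells.

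Slc16a3 was scarce everywhere, with 153 UMIs in all Foxq1flox/flox cells used and 160 in Foxq1iECKO. Megakaryocyte-like cells had 16.3 CPM (5.98 to 35.5) and 15.3 CPM (4.16 to 39.1), from 6 and 4 UMIs. Leukocyte-like cells had 5.06 and 4.74 CPM and macrophage-like cells 4.60 CPM (3.17 to 6.46) and 4.78 CPM (3.45 to 6.46). Endothelial-like cells had 1.71 CPM (1.15 to 2.46) and 1.59 CPM (0.983 to 2.43), from 29 and 21 UMIs, a log2 ratio of -0.11 (-0.99 to 0.75). Neighbouring classes in the order overlapped throughout, in both libraries. Neuron-like cells had 1 UMI in Foxq1flox/flox and 0 in Foxq1iECKO, and 3 UMIs, the floor used here, would be 0.433 and 0.626 CPM there, so no ratio is given.

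Cartilage-like cells were called higher by size for Slc16a3 in Foxq1iECKO, at a level for which no background share was taken. The level was 3.21 CPM (2.08 to 4.74), from 25 UMIs in 24 cells, against 6.55 CPM (4.59 to 9.07), from 36 UMIs in 35 cells, a log2 ratio of 1.03 (0.25 to 1.83). Fibroblast markers in cartilage-like cells also differed, summing to 5554 and 8604 CPM with 8 of 12 higher in Foxq1iECKO. Fibroblast-like cells themselves had 1.07 and 1.27 CPM of Slc16a3, below either cartilage-like level.

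Bsg was present in every class, and its range was the narrowest, 3.05 and 3.60 times from the lowest to the highest class. Endothelial-like cells had 46.7 CPM (43.5 to 50.1) and 47.3 CPM (43.7 to 51.2), the highest class in Foxq1flox/flox. In Foxq1iECKO, megakaryocyte-like cells were at 49.7 CPM (26.4 to 84.9), from 13 UMIs, and did not differ from endothelial-like cells beyond counting error. The remaining classes lay between 15.3 and 27.2 CPM and between 13.8 and 28.4 CPM, with neuron-like cells lowest in both libraries, and each overlapped its neighbours in the order. The genotype log2 ratio in endothelial-like cells was 0.02 (-0.13 to 0.17).

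Within endothelial-like cells Bsg, like Slc2a1, was highest in the Fam13a-led barrier cells and lowest in the non-barrier cells. The Fam13a-led cells had 122 CPM (96.2 to 152) and 120 CPM (90.5 to 157), the Synm-led 76.2 and 83.3 CPM, and the non-barrier cells 22.5 CPM (19.1 to 26.3) and 22.3 CPM (18.7 to 26.4). Barrier subclusters together had 81.7 and 92.3 CPM, a genotype log2 ratio of 0.17 (-0.09 to 0.43). The other endothelial-like cells had 31.4 and 40.0 CPM, a ratio of 0.35 (0.15 to 0.55), and the cycling cells among them 37.4 and 58.5 CPM, a ratio of 0.65 (0.12 to 1.16) that passed the size rule. The make-up of these other cells differed between the libraries, with 117 and 284 Ccn4-led and 351 and 221 cycling cells. Bsg was higher in each barrier score range than in the one below, from 20.7 and 24.5 CPM at 0 to 2 barrier UMIs to 94.9 and 105 CPM at 15 or more, where the ratios were 0.24 (-0.11 to 0.60) and 0.15 (-0.09 to 0.39). In the range of 10 to 14 barrier UMIs it was called higher by size in Foxq1iECKO, at 46.5 and 70.1 CPM, a ratio of 0.59 (0.19 to 1.00). Cells with 0 Foxq1 UMIs had 28.4 and 39.5 CPM of Bsg, a ratio of 0.48 (0.25 to 0.71), and those with 2 or more had 73.2 and 67.6 CPM, a ratio of -0.11 (-0.48 to 0.24). As given for Slc2a1, the Foxq1 ranges held unlike shares of the cells of the 2 libraries. After thinning, 14% and 15.7% of barrier cells and 8.64% and 8.43% of all endothelial-like cells had a Bsg UMI, against 3.19% and 2.04% of neuron-like cells.

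The partners were rarely seen in one cell at this depth. Bsg and Slc16a1 were both detected in 0.338% and 0.629% of thinned endothelial-like cells, where the product of their single shares is 0.497% and 0.467%. In cartilage-like cells the values were 1.03% and 1.09% against products of 1.01% and 1.18%. Slc2a1 and Slc2a3 were both detected in 0.531% and 0.818% of endothelial-like cells, against 0.579% and 0.762%. Joint detection thus lay on both sides of the product of single shares, depending on the pair and the library. Counts this sparse limit what such shares can show.

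Over the 10 classes in both libraries (20 points of log2(CPM + 5), which share 2 libraries and so are not independent), Slc2a1 and Bsg had a Pearson correlation of 0.82 and Slc2a3 and Slc16a3 of 0.80. The latter 2 genes were both highest in megakaryocyte-like cells, Slc16a3 at 16.3 CPM (5.98 to 35.5) and 15.3 CPM (4.16 to 39.1). No correlation without that class was taken. Slc16a3 was scarce in all classes, so its correlations and the genes most like it rest on few UMIs. Slc2a3 and Slc16a1 were at -0.35 and Slc16a1 and Bsg at -0.06. Among 10416 genes, those most like Slc2a1 were Eogt (0.96), Vwa1, Mal, Sema3g and Slc38a5, the last an amino acid transporter of the barrier list. Slc2a3 was most like Ptgir (0.97), the prostacyclin receptor gene, followed by Atp2a3, Abca7, Elovl7 and Vps13a. Slc16a1 was most like Sema3d (0.89), Mbnl3, Hmga2, Gnl3 and Dctd. Slc16a3 was most like Chst12 (0.93), St3gal1, Mob3c, S100a1 and Stx11, and Bsg like Htra3 (0.87), Lrrc8c, Saraf, Slco2a1 and Fam110c.

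The wider pathway was read in lists of related genes, taking those with at least 10 CPM in 1 library. In endothelial-like cells 0 of 46 measured list genes beyond the members were called, against 2.37% of 8026 genes at 10 CPM. At so low a share a count of 0 says little about these lists. The median log2 ratio of all 8026 genes was -0.03. Of 9 other SLC2 sugar transporter genes, 2 were measured, Slc2a13 (24.5 and 25.4 CPM) and Slc2a10 (15.2 and 16.2 CPM). None of 4 sodium-coupled glucose transporter genes reached the minimum, and none of 2 sodium-coupled monocarboxylate transporter genes. Of 12 other SLC16 genes, 3 were measured with a median ratio of -0.28, among them Slc16a6 (60.8 and 50.1 CPM) and Slc16a13 (14.6 and 10.2 CPM). Of 4 basigin relatives and ligands, 3 were measured, the cyclophilin genes Ppia (2386 and 2638 CPM) and Ppib (59.6 and 56.6 CPM) and the neuroplastin gene Nptn (104 and 111 CPM).

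The measured genes of transporter handling and of glucose use, part of the same 46, were likewise not called in endothelial-like cells. Of 7 GLUT1 trafficking and turnover genes, 6 were measured with a median ratio of 0.03, led by the retromer subunit genes Vps35 (195 and 202 CPM) and Vps29 (93.3 and 103 CPM). Of 15 glycolytic enzyme genes, 11 were measured with a median of 0.08 and 8 of them above 0, among them Pgk1 (393 and 441 CPM), Pgam1 (320 and 357 CPM) and Pkm (171 and 172 CPM). Of 11 lactate and pyruvate genes, 9 were measured with a median of 0.04, led by the lactate dehydrogenase gene Ldha (390 and 398 CPM), Pdhb (176 and 188 CPM) and the pyruvate carrier gene Mpc2 (97.8 and 107 CPM). The list of HIF factors and hypoxia-induced genes includes Slc2a1 and Slc16a3. Of its 15 genes with a row, 13 were measured with a median of -0.09. Those with the highest levels included Epas1, encoding the endothelial factor HIF-2α (978 and 896 CPM), and Ddit4 (179 and 164 CPM), both with ratios of -0.13. The 4 with ratios above 0 were Vegfa, the gene of a vascular growth factor (31.1 and 42.7 CPM, 0.46), Egln3 (0.31), Ndrg1 (0.17) and Higd1a (0.01).

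In the barrier subclusters 2 of 47 measured list genes beyond the members were called, or 4.26%, against 5.21% of 8084 genes at 10 CPM, so the share was near the background. The median log2 ratio of those 8084 genes was 0.02. Adm, the hypoxia-induced gene of the vasodilator peptide adrenomedullin, was higher in Foxq1iECKO, at 64.9 and 106 CPM, a log2 ratio of 0.70 (0.44 to 0.96). The monocarboxylate family gene Slc16a13 was lower, at 21.1 and 12.9 CPM, a ratio of -0.71 (-1.42 to -0.07). The medians of the lists there were 0.44 over the 2 measured SLC2 genes, -0.23 over the 5 SLC16 genes, 0.12 over the 6 trafficking genes, 0.08 over the 11 glycolytic genes, -0.02 over the 8 lactate and pyruvate genes and 0.02 over the 13 HIF and hypoxia genes.

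**Figure D5:**
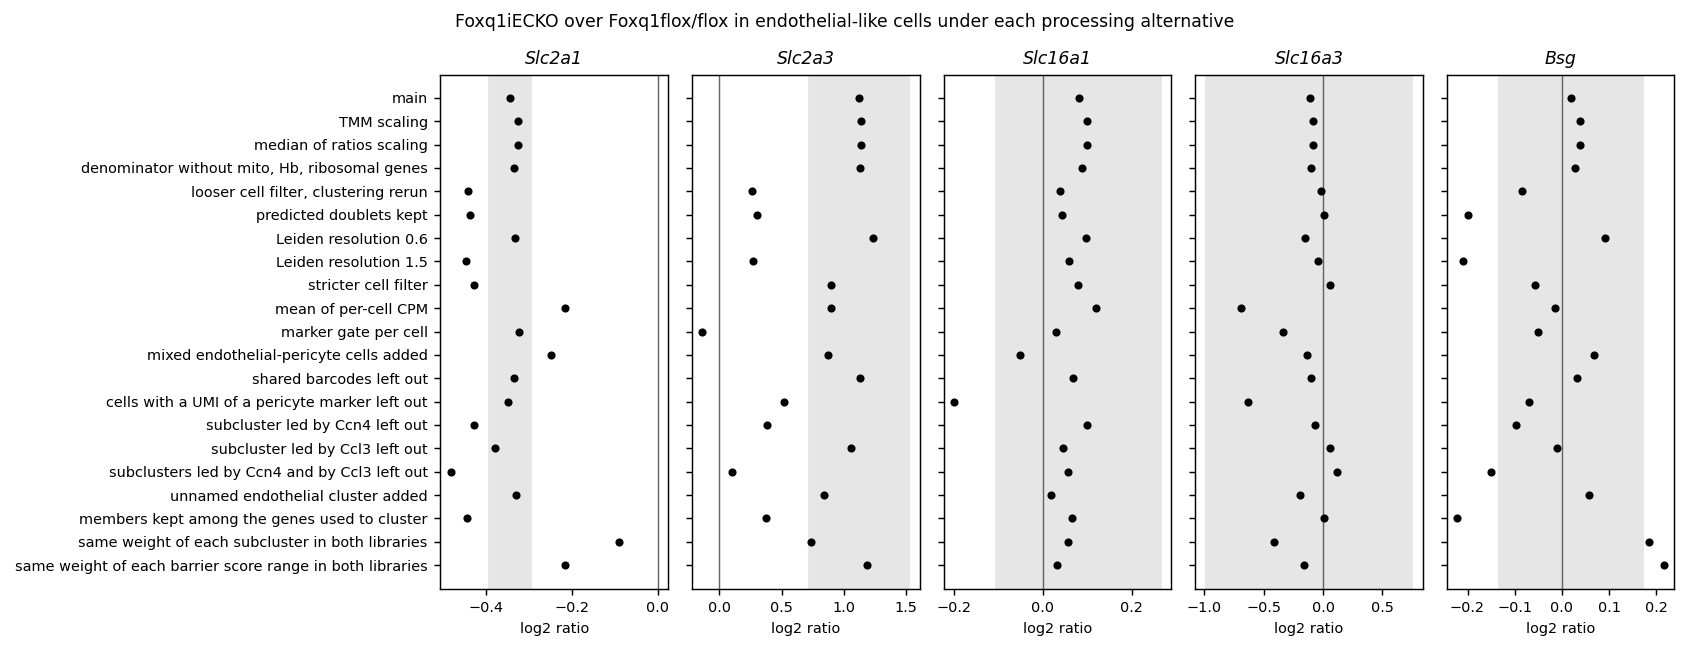
Log2 ratio of CPM, Foxq1iECKO over Foxq1flox/flox, in endothelial-like cells under the main processing and 20 alternatives, 1 point per setting; the grey band is the 95% counting interval of the main value. Slc2a1 stays below 0, from -0.48 to -0.089, Slc2a3 runs from -0.14 to 1.24, and Bsg lies on both sides of 0, from -0.22 to 0.22.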

How the data were processed

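The 2 single-cell 3′ UMI libraries analysed here came from 1 genotype each. The authors deposited raw UMI counts per gene and barcode, and per the submitters' processing notes fastp 0.24.0, STARsolo 2.7.11b and the mm10 build were used; the sources used here give no settings, strand use or doublet removal. The cell filter (500 genes or more, 1000 UMIs or more, no more than 20% mitochondrial) left 13933 and 13108 cells, Scrublet (scanpy 1.11.5, expected rate 0.08) marked 534 and 516 as doublets (3.83% and 3.94%), and these were left out. The rest were clustered on 2000 variable genes without the 5 members, 30 principal components and 20 neighbours (Leiden, resolution 1; subclusters 0.6). Classes were named "X-like" from at least 3 listed markers at 50 CPM and 2 times the other cells, and compared with at least 50 cells in both libraries. It was decided after the clusters were seen that subtype markers count for their class and that subclusters with 50% or more of another class's markers are set aside as mixed.

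UMIs were summed per library and class, and 1 library per genotype allows no test. The calling script was tested on simulated counts. Genes most like a member were the 5 with the highest Pearson correlation of log2(CPM + 5) among genes at 20 CPM in at least 1 point; from each pathway list up to 3 measured genes were named, called genes first, then the most abundant; 1 gene that this rule would name is not reported here. The members and lists were chosen with earlier results of these data known. Intervals and floors cover counting error only. Scaling alternatives used edgeR 4.0.16 (TMM) and DESeq2 1.42.0 size factors only; other alternatives changed the cell filter, doublets, clustering, endothelial cells summed, weighting and thinning depth.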

Additional observations from a re-analysis of the deposited data

Results flagged for a closer look

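The log2 ratio (Foxq1iECKO over Foxq1flox/flox) of Slc16a1 was above 0 in leukocyte-like cells, at 0.30 (0.02 to 0.57), and below 0 in mixed endothelial and pericyte cells, at -0.52 (-0.96 to -0.07), each with a counting interval that excludes 0; the difference was not tested. Among 11 classes these were the 1 above and the 1 below.

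The Slc2a1 ratio was above 0 in the Ccl3-led endothelial subcluster, at 0.25 (0.05 to 0.45), and below 0 in the arterial subcluster, at -0.56 (-0.90 to -0.23), as in 3 other of the 8 endothelial subclusters. The difference was not tested. The Ccl3-led cells were shallow, with median depths of 2040.5 and 1952 UMIs, and held macrophage markers at 288 and 460 CPM.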

How the results depend on the processing

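No paired analysis was possible because each genotype has 1 library. In endothelial-like cells the log2 ratio of Slc2a1 (main -0.34) stayed below 0 in all 20 alternatives and moved beyond its counting interval in 11. These were -0.44 with the looser cell filter, -0.44 with doublets kept, -0.45 at Leiden resolution 1.5, -0.43 with the stricter filter and -0.21 as a mean of per-cell CPM. It was -0.25 with the mixed cells added, -0.44 with members kept for clustering and -0.089 with the same subcluster weights in both libraries. In alternatives chosen after seeing the data it was -0.43 without the Ccn4-led cells, -0.48 without these and the Ccl3-led cells, and -0.21 with the same barrier score weights in both libraries. Slc2a3 (main 1.12) fell to 0.27 with the looser filter, 0.31 with doublets kept, 0.27 at resolution 1.5 and 0.38 with members kept. In alternatives chosen after seeing the data it fell to 0.52 without cells with a pericyte marker UMI, 0.38 without the Ccn4-led cells and 0.11 without both unnamed subclusters. It reversed to -0.14 under the marker gate per cell, which does not leave out cells with megakaryocyte markers. Slc16a1 (main 0.08) was -0.20 without cells with a pericyte marker UMI. Bsg (main 0.02) was -0.20 with doublets kept, -0.21 at resolution 1.5, -0.15 without both unnamed subclusters and -0.22 with members kept. With the same weights in both libraries it was 0.19 by subcluster and 0.22 by score range. Slc16a3 did not move beyond its interval in any of its 20 alternatives. The cause was not tested in these cases. The highest class of a member was as in the main analysis for 5 of 5 genes, except 4 at resolution 0.6 (Bsg) and 2 under the stricter filter, which leaves fewer than 50 megakaryocyte-like cells in a library. Thinning to 1000 UMIs lowered the share of endothelial-like cells with a UMI to 36.1% and 33.2% for Slc2a1 and 4.55% and 4.37% for Bsg. Of 224 alternatives of the remaining results, 219 stayed within their interval and 5 moved (all shares at 1000 UMIs). A reversal was counted only where the main ratio was called by size. Among these results that held only for Slc2a3 in lymphatic endothelial-like and Slc16a3 in cartilage-like cells, so the count of 0 reversed says little. Ratios not called could change sign within their interval, as for Slc2a1 in pericyte-like cells (-0.03 to 0.49). At 20 CPM in place of 10, the counts of called pathway genes were again 0 and 2. Without shared barcodes, Slc2a3 in lymphatic endothelial-like cells was at 1.56 and Slc16a3 in cartilage-like cells at 0.98. Slc16a3 everywhere and Slc2a3 in endothelial-like cells are limited by depth, at 153 to 160 and 85 to 144 UMIs.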
